A study of Mus musculus with 6 samples.

Results

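The 9 genes described here mark the connective tissue cells of the lung and the growth factors these cells send to their neighbours. They were taken as the rows of the deposited table with the symbols Tcf21, Inmt, Npnt, Pdgfra, Pi16, Wnt2, Wnt5a, Fgf10 and Scube2. Each symbol matched 1 of the table's 24054 rows, and all 9 passed the filter on low values that left 14159 genes for testing. The question is whether lungs of mice given vesicles from mutant cells differ in these transcripts from lungs of mice given vesicles from normal cells.

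The 6 lungs came from female SCID mice, which lack mature T and B cells, with 3 mice in each group. The WT EV group received CD9+CD63+CD81+ extracellular vesicles (EVs), membrane-bound particles released by cells, from wild-type neural progenitors of the E15.5 mouse embryo. The Tsc1-null EV group received vesicles of the same kind from progenitors without Tsc1, a brake on the growth kinase complex mTORC1. In both groups the vesicles were fluorescently labelled and given into the tail vein, rat ELT3 cells (a tumour line used to model lymphangioleiomyomatosis) followed by vein after 48 h, and the lung was taken 72 h after those cells. The mutation was thus in the vesicle donor cells, not in the lungs, and the donors were neural cells in culture. No lung without vesicles or without ELT3 cells was analysed here, and the age of the mice is not given in the sources used here. Each library is treated as 1 mouse because the labels number the samples separately; if libraries shared a mouse, the p-values would cover technical spread only.

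Fibroblasts of the lung fall into populations with different places and tasks. Alveolar fibroblasts lie in the walls of the air sacs beside type 2 epithelial cells, and adventitial fibroblasts wrap larger vessels and airways. Through secreted WNT and FGF ligands such cells support epithelial stem cells and repair, and the receptor PDGFRA lets them respond to platelet-derived growth factor from their neighbours.

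The libraries held 5101413 to 9358820 reads assigned to genes, as recovered from the steps of the deposited values. How the authors counted is not stated, and RSEM, a tool named in the processing notes, usually gives counts that are not whole, so these read numbers, here and below, are what the steps imply. Values are called TMM-normalized CPM, a scale read from the table's name and values, and group values are mean ± SD over 3 mice. In every library the lung markers Sftpc (13094 to 29628) and Ager (1671 to 3873) were high. Tsc1-null EV replicate 1, the shallowest library, and WT EV replicate 2 stood apart. Their median correlations with the other libraries across genes were 0.942 and 0.963, against 0.980 to 0.982, and the nuclear RNA Malat1 was at 30060 and 15673 in them, against 1609 to 2819 elsewhere. Printed folds and list medians that move by over 1.5 times or change sign without Tsc1-null EV replicate 1 are given both ways, and results without both libraries where they bear on a call or a direction.

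The stretch before the start of 3 of the genes is shown because 2 of them, Tcf21 and Inmt, were lowest in the same lung, while Fgf10 was highest in it. The window searched was the 250 bases before the RefSeq start on the gene's own strand, 5′ to 3′, in build GRCm38.p6. The runs printed stop where an exon annotated in GENCODE M21 begins, which leaves out the last 31 bases of the Tcf21 window and the last 53 of the Inmt window. They span chr10:22820175-22820393 (minus strand) for Tcf21, chr6:55175044-55175240 (minus strand) for Inmt and chr13:118714449-118714698 (plus strand) for Fgf10, which lies inside the Fgf10 gene as GENCODE draws it but in none of its exons. Capitals mark 3 motifs searched on both strands: CAGCTG (a form of the E-box read by basic helix-loop-helix factors such as TCF21), TATAAA (the TATA box) and GGGCGG (the GC box, which reads CCGCCC on the other strand).
Tcf21: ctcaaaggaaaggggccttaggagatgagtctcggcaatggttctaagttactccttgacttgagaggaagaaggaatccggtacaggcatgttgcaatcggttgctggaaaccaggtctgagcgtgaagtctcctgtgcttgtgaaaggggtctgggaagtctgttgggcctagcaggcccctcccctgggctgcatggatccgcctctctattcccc
Inmt: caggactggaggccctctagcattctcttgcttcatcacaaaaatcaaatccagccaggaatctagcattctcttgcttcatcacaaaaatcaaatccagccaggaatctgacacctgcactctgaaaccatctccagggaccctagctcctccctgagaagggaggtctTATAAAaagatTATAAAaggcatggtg
Fgf10: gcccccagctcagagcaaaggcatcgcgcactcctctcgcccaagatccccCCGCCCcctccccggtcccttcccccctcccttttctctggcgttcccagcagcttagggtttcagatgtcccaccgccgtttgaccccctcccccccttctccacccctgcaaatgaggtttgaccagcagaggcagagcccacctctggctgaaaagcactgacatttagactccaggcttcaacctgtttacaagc
The Inmt window held 2 copies of TATAAA and 1 CAGCTG, which starts 14 bases before the RefSeq start, in the part GENCODE places in the first exon. The Fgf10 window held 1 GC box, and the Tcf21 window none of the 3 motifs. Among all 32851 promoter windows of this length in the table, 13.0% held CAGCTG, 12.4% TATAAA and 32.7% a GC box. RefSeq promoters matched 8 of the 9 genes, all but Wnt5a. Of the 5 genes lowest in Tsc1-null EV replicate 1 (Tcf21, Inmt, Pdgfra, Wnt2 and Scube2), Inmt was the one with a CAGCTG in this window, and Wnt2 and Scube2 held 1 and 5 GC boxes. The wider E-box form CANNTG (N is any base), not marked above, was held by 66.2% of all windows. It stood 2 times in the Inmt and Fgf10 windows, 1 time in that of Pdgfra and 0 times in those of Tcf21, Wnt2 and Scube2.

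Per kilobase of annotated exon, Inmt stood far above the other genes and Wnt5a lowest. Averaged over the 6 libraries, Inmt was at 1441 ± 430.3 TMM-normalized CPM per kilobase (SD, n = 6), ahead of Npnt at 120.0 ± 13.2 and Tcf21 at 59.1 ± 19.5. Pdgfra followed at 15.5 ± 4.14 and Scube2 at 8.92 ± 3.04. The secreted signals were the low end, with Wnt2 at 5.72 ± 1.49, Fgf10 at 4.86 ± 1.15 and Wnt5a at 1.67 ± 0.307, and the adventitial gene Pi16 at 4.01 ± 1.2 lay among them. Neighbours in this order did not overlap from Inmt down to Pdgfra, the closest being Tcf21 (24.7 to 80.2) and Pdgfra (7.88 to 19.2). The ranges of Pdgfra and Scube2 overlapped, as did those of Scube2, Wnt2, Fgf10 and Pi16, so their order is not beyond the spread of the libraries. Wnt5a (1.24 to 2.20) lay below the range of every other member.

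**Figure D1:**
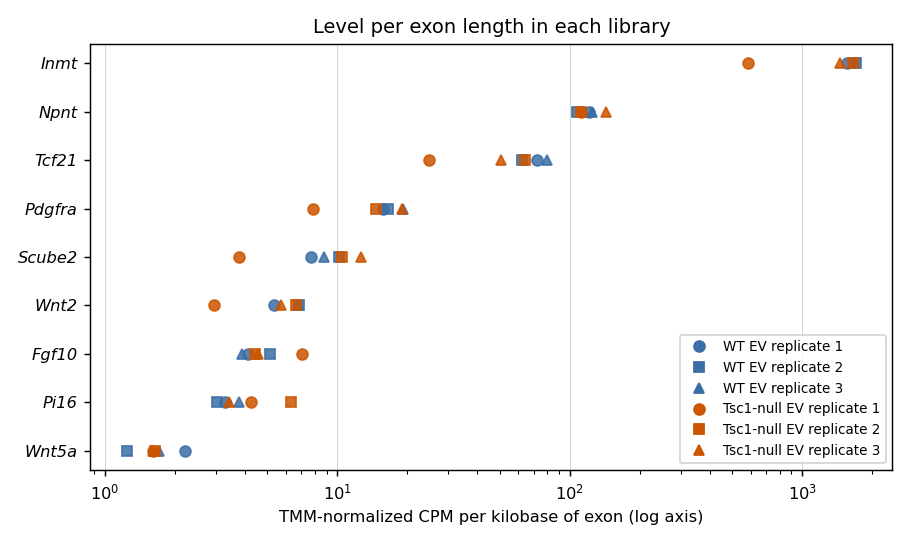
TMM-normalized CPM per kilobase of exon (log axis) for each of the 9 genes, 1 point per library, coloured by group and shaped by replicate. Inmt is highest at 1441 on average and Wnt5a lowest at 1.67, and the point farthest from its neighbours in the rows of Inmt, Tcf21, Pdgfra, Scube2 and Wnt2 is Tsc1-null EV replicate 1.

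Between the groups, no member passed the test. Limma called 0 of the 9 genes at an adjusted p under 0.05 (0 at an unadjusted p under 0.05), where it called 0 of 14159 genes in all (0%; 930 genes, 6.57%, at an unadjusted p under 0.05). On the recovered reads edgeR called 0 members (0 unadjusted) and DESeq2 called 0 (1 unadjusted, Tcf21). DESeq2 called 0.09% of the 12228 genes to which it gave an adjusted p. With sample weights limma called 0 members (2 unadjusted, Pi16 and Tcf21), where it called 7.42% of all genes. Without both libraries that stood apart it called 0 members (2 unadjusted, Scube2 and Tcf21) and 0.177% of all genes. In all 9 genes the groups overlapped, where 13.1% of the genes tested did not overlap (6.86% higher and 6.22% lower in all 3 Tsc1-null EV lungs). The log2 fold of value + 1 from WT EV to Tsc1-null EV was below 0 in 6 members and above 0 in 3. Over all genes tested 47.3% were above 0. The members' median was -0.14, against -0.02 over all genes tested. Leaving out Tsc1-null EV replicate 1 brought the members' median to -0.03, and leaving out both libraries that stood apart brought it to 0.03. Standard errors ran from 0.17 to 0.39, so moderate differences were within the intervals. For Tcf21 these were decreases (upper end 0.0036), and for Pi16 mostly increases (lower end -0.12).

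**Figure D2:**
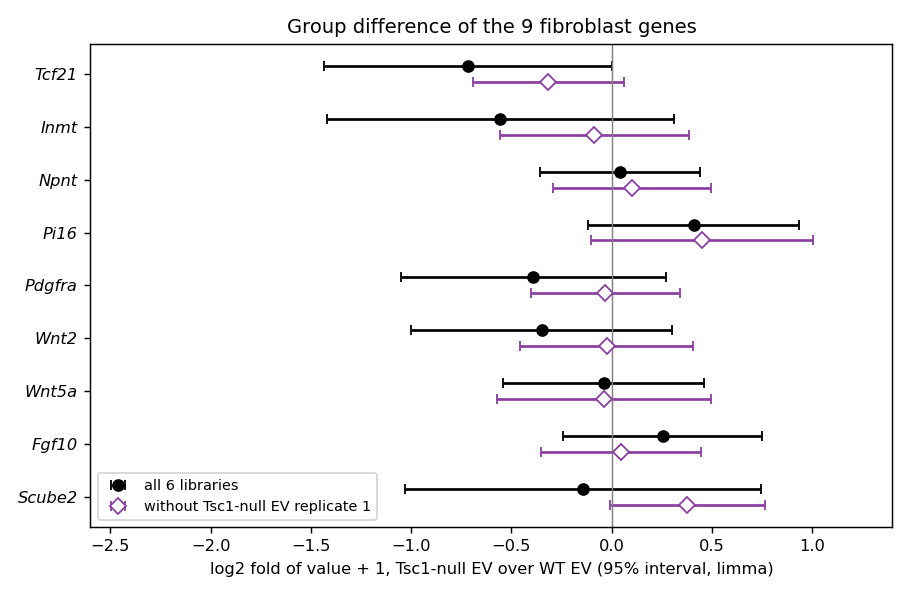
Log2 fold of value + 1 from WT EV to Tsc1-null EV, with its 95% interval from limma for each gene. Black circles use all 6 libraries and open diamonds leave out Tsc1-null EV replicate 1, which brings Inmt from -0.56 to -0.09 and Scube2 from -0.14 to 0.38.

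Tcf21, the basic helix-loop-helix factor that specifies lung mesenchyme, had the smallest p of the members. It stood at 169, 147 and 188 in the WT EV lungs and at 57.9, 151 and 119 in the Tsc1-null EV lungs. Tsc1-null EV replicates 1 and 3 lay below all WT EV lungs, while replicate 2 lay just above WT EV replicate 2. The means were 168 ± 20.8 and 109 ± 47.4 (n = 3 each), a log2 fold of -0.72 ± 0.32 (SE; 95% interval -1.43 to 0.0036; limma unadjusted p = 0.051, adjusted p = 0.721). The fold was -0.32 ± 0.17 without Tsc1-null EV replicate 1, and -0.41 ± 0.15 (limma adjusted p = 0.335) without both libraries that stood apart. In whole lung, fewer cells of a type and less RNA in each cell cannot be told apart.

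Inmt, an enzyme that methylates indole amines and one of the strongest transcripts of alveolar fibroblasts, differed by 1 library. Its values were 2498, 2730 and 2689 in WT EV and 934, 2659 and 2320 in Tsc1-null EV lungs. The WT EV lungs lay close together, Tsc1-null EV replicate 3 just below them, and Tsc1-null EV replicate 1 far below, at 35.4% of the WT EV mean. The log2 fold was -0.56 ± 0.38 (95% interval -1.42 to 0.31) with all libraries and -0.09 ± 0.21 without that one. Pdgfra, the PDGF receptor carried by most lung fibroblasts, had the same shape. It was at 157, 165 and 192 in WT EV and 79.0, 147 and 190 in Tsc1-null EV lungs, a log2 fold of -0.39 ± 0.29, or -0.03 ± 0.16 without Tsc1-null EV replicate 1.

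Npnt encodes nephronectin, a matrix ligand of integrin alpha 8 beta 1 that alveolar type 1 cells also make. It did not share the low value of Tcf21, Inmt and Pdgfra in Tsc1-null EV replicate 1. Its values were 611, 539 and 629 in WT EV and 562, 560 and 719 in Tsc1-null EV lungs, and Tsc1-null EV replicate 1 was at 94.7% of the WT EV mean. The log2 fold was 0.04 ± 0.17 (95% interval -0.36 to 0.44), the narrowest interval of the members, and 0.10 ± 0.17 without Tsc1-null EV replicate 1. Its receptor chain Itga8, an alveolar fibroblast gene itself, stood at 240, 171 and 223 in WT EV and 96.8, 228 and 245 in Tsc1-null EV lungs, with the lowest value again in Tsc1-null EV replicate 1. The type 1 cell marker Ager was at 2940, 1989 and 3873 and at 1671, 2803 and 3186, so it too was lowest there, as were 3 of the 6 type 1 markers in all. Emp2, another of them, was at 1332 there, inside the WT EV range of 1144 to 1456.

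Pi16, a secreted protease inhibitor family protein that marks adventitial fibroblasts, was the member with the largest log2 fold above 0. It stood at 21.0, 19.2 and 24.1 in WT EV and 27.1, 40.1 and 21.7 in Tsc1-null EV lungs. Tsc1-null EV replicates 1 and 2 lay above every WT EV lung and replicate 3 lay inside their range. Its log2 fold was 0.41 ± 0.23 (95% interval -0.12 to 0.93; limma adjusted p = 0.741), and 0.17 ± 0.21 without Tsc1-null EV replicate 2. It rested on 131 to 372 reads per library.

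**Figure D3:**
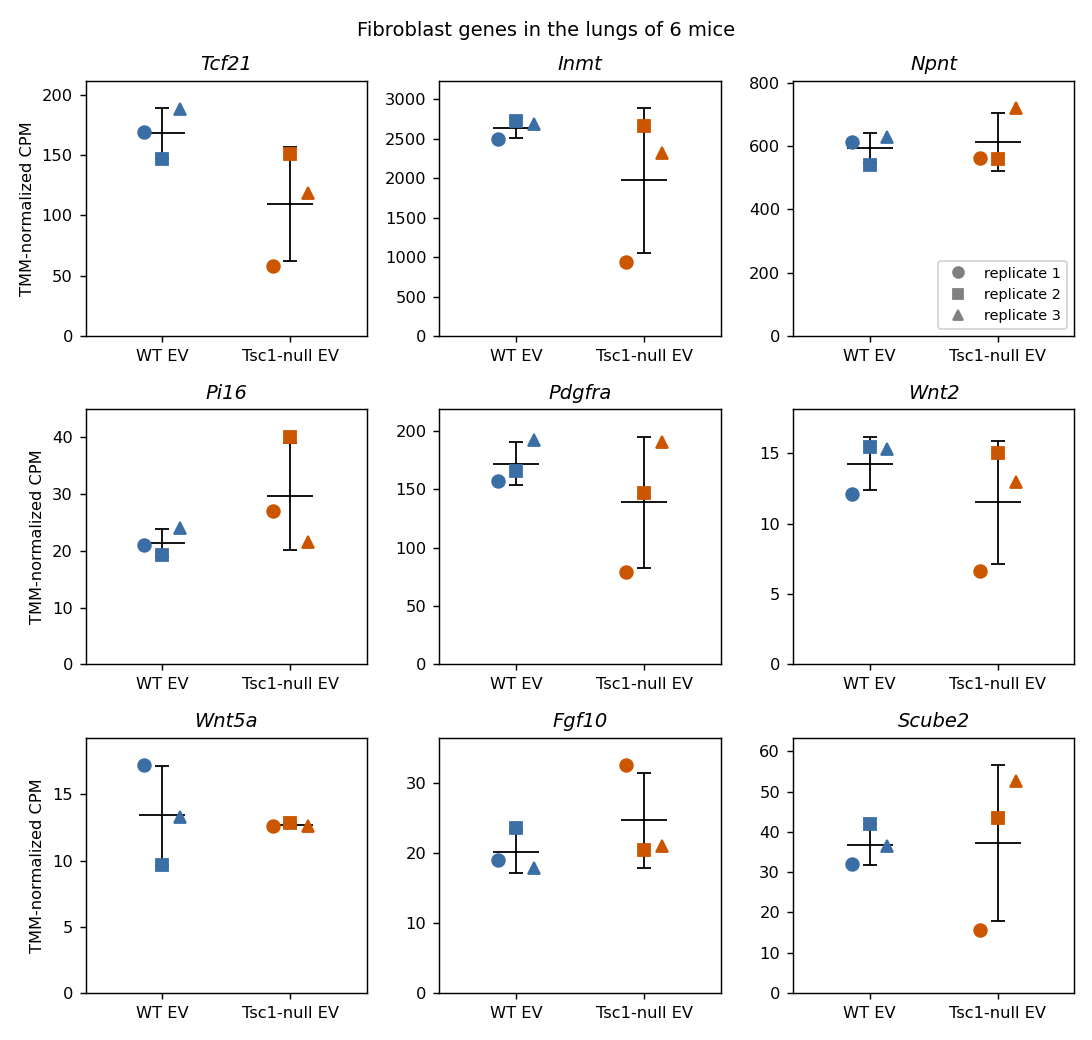
TMM-normalized CPM of each of the 9 genes in every library, by group; horizontal bars with whiskers are the mean ± SD over 3 mice and marker shapes are replicates. The groups overlap in every panel, and Tsc1-null EV replicate 1 (circle on the right) is the lowest of the 6 for Tcf21, Inmt, Pdgfra, Wnt2 and Scube2.

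Of the ligands, Wnt2 was lowest in Tsc1-null EV replicate 1, as Inmt and Pdgfra were, and Fgf10 was highest there. Wnt5a hardly varied among the Tsc1-null EV lungs. Wnt2, an activator of beta-catenin signalling that acts in lung development, stood at 12.1, 15.4 and 15.3 in WT EV and 6.62, 15.0 and 12.9 in Tsc1-null EV lungs. The low value rested on 33 reads, with a 95% Poisson interval of 4.55 to 9.29 (counting error only), below the other 5 values. The log2 fold was -0.35 ± 0.29 (95% interval -1.0 to 0.30), or -0.03 ± 0.19 without Tsc1-null EV replicate 1.

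Wnt5a, which mostly signals without beta-catenin, stood at 17.2, 9.70 and 13.3 in WT EV lungs and at 12.6, 12.8 and 12.6 in Tsc1-null EV lungs. Here the spread lay within the WT EV group, whose replicates 1 and 2 held the highest and the lowest value. The log2 fold was -0.04 ± 0.22 (95% interval -0.54 to 0.46).

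Fgf10, the mesenchymal ligand of the epithelial receptor FGFR2 and a driver of airway branching and alveolar repair, stood at 19.0, 23.5 and 17.9 in WT EV and 32.5, 20.4 and 21.0 in Tsc1-null EV lungs. Tsc1-null EV replicate 1 held the highest value, at 161% of the WT EV mean and from 162 reads, while the other Tsc1-null EV lungs lay inside the WT EV range. The log2 fold was 0.25 ± 0.22 (95% interval -0.24 to 0.75), and 0.05 ± 0.18 without that library.

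Scube2 is a secreted cofactor that helps lipid-bound hedgehog ligands leave the cell that makes them. It stood at 32.0, 42.0 and 36.5 in WT EV and 15.6, 43.5 and 52.7 in Tsc1-null EV lungs, so the Tsc1-null EV group held both the lowest value and the 2 highest. Its log2 fold was -0.14 ± 0.39 (95% interval -1.03 to 0.75) with all libraries. It turned to 0.38 ± 0.17 (limma adjusted p = 0.571) without Tsc1-null EV replicate 1 and to 0.47 ± 0.16 (adjusted p = 0.294) without both libraries that stood apart.

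Tsc1-null EV replicate 1 thus held the lowest value of 5 of the 9 members (55.6%) and the highest of 1. Over all genes tested it was lowest for 30.3% and highest for 25.4%. In log2 its distance from the WT EV mean was -1.51 for Tcf21, -1.50 for Inmt, -1.18 for Scube2, -1.11 for Pdgfra and -1.0 for Wnt2, against -0.07 for Npnt, -0.05 for Wnt5a, 0.33 for Pi16 and 0.67 for Fgf10. In the other Tsc1-null EV lungs the same distances ran from -0.49 (Tcf21, replicate 3) to 0.88 (Pi16, replicate 2). WT EV replicate 2, the other library that stood apart, held the lowest value of Npnt, Wnt5a and Pi16 and the highest of Inmt and Wnt2.

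**Figure D4:**
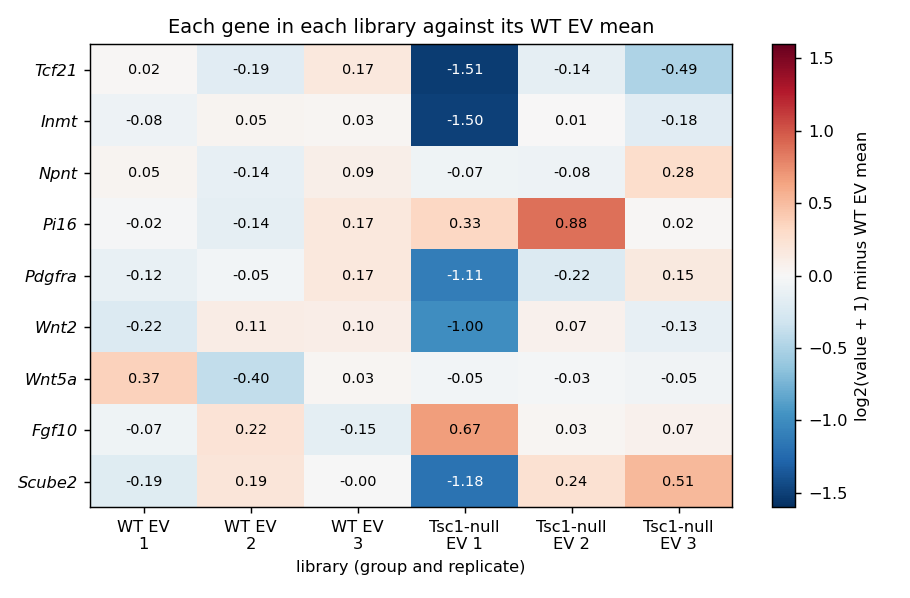
Log2(value + 1) minus the WT EV mean of the gene, for each gene (rows) in each library (columns); blue is below the WT EV mean and red above. The column of Tsc1-null EV replicate 1 runs from -1.51 for Tcf21 to 0.67 for Fgf10.

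Markers of other cells also differed in this lung. All 7 endothelial, all 7 pericyte, 9 of 10 measured mesothelial and 4 of 4 measured adipocyte markers were lowest in Tsc1-null EV replicate 1, and all 5 ciliated markers were highest. The summed endothelial markers were at 1707 there, against 2582 to 3414 in the WT EV lungs and 2536 and 3204 in the other Tsc1-null EV lungs. The pericyte sum was 336, against 500 to 678 and 657 and 620, and the mesothelial sum 246, against 712 to 1389 and 613 and 781. Krt19, the mesothelial marker not lowest there, made up 181 of that 246. The mean log2 distance of the 10 mesothelial markers from the WT EV mean was -3.16 there, against -0.79 and -0.35 in the other Tsc1-null EV lungs. The ciliated sum was 1400, against 613 to 841 and 808 and 783. Adipocyte markers summed to 11.6, against 25.0 to 93.4 and 35.9 and 24.6. Heart muscle markers were lowest there in 4 of 6, at 88.4 against 297 to 502 and 320 and 277, with Nppa at 0 in Tsc1-null EV replicates 1 and 3; the mesothelial marker Bnc1 was also at 0 in at least 1 library. Of 7 smooth muscle markers 3 were lowest there, and the sum was 1261 against 1520 to 1980 and 1973 and 1314. Of 6 type 1 markers 3 were lowest there, and their sum, to which Ager adds most, was 4244, against 4744 to 7169 and 5125 and 6113. Of 6 type 2 markers 1, Sftpc, was lowest there. Sftpc carries most of the type 2 sum of 21166, against 23759 to 31315 and 42094 and 32921, while Abca3, a lipid transporter of these cells, was at 217 there, against 196, 184 and 156 in WT EV. The part of these shifts, of depth and of Malat1 in the values of the 9 genes was not tested.

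The other genes of fibroblasts and of the pathways were read from the same fit. Counts of list genes above and below 0 are to be read beside the 47.3% of all genes tested that were above 0. With all libraries weighted alike, none of the genes in the 23 lists passed in either direction: limma called 0 of 183 measured list genes (20 unadjusted), edgeR called 0 (22) and DESeq2 called 0 (26). Of 183 list genes 7 were higher and 16 lower in all 3 Tsc1-null EV lungs, together 12.6%, near the 13.1% over all genes. With sample weights limma called 25 of the list genes, Col13a1, Serpinf1, Fgf18, Pdgfb, Gli3, Col1a2 and Col3a1 among them, where it called 7.42% of all genes.

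Of 11 further alveolar fibroblast genes measured, 10 had a log2 fold below 0 and 9 were lowest in Tsc1-null EV replicate 1. Their median log2 fold was -0.38, and -0.04 without that library. Col13a1, the collagen chain that names these cells in mouse, stood at 60.4, 62.6 and 60.8 in WT EV and 40.1, 43.8 and 54.7 in Tsc1-null EV lungs. It was below every WT EV lung in all 3, with a log2 fold of -0.41 ± 0.16 (limma adjusted p = 0.721) and -0.32 without Tsc1-null EV replicate 1. Limch1, an actomyosin regulator, was also below every WT EV lung in all 3, at 904, 1021 and 852 against 811, 691 and 801 (log2 fold -0.27 ± 0.17). The carboxylesterase Ces1d, the highest of the list by its mean over the 6 libraries though below Limch1 in every WT EV lung, was the 1 gene above 0 and was highest in that replicate, at 881, 663 and 814 in WT EV and 1228, 1136 and 874 in Tsc1-null EV lungs. Slc7a10, an amino acid transporter, stood at 24.6, 23.1 and 27.0 and at 13.6, 19.4 and 24.0, with overlapping groups (log2 fold -0.40, and -0.20 without Tsc1-null EV replicate 1).

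Of 11 further adventitial fibroblast genes 8 were below 0 and 8 were lowest in Tsc1-null EV replicate 1, with a median of -0.12, and 0.16 without it. Clec3b stood at 223, 254 and 259 in WT EV and at 88.2, 246 and 256 in Tsc1-null EV lungs (log2 fold -0.46, and 0.04 without Tsc1-null EV replicate 1), and Serpinf1, an antiangiogenic secreted protein, at 52.6, 33.4 and 47.7 and at 66.0, 76.0 and 47.7. Pi16 was thus not low in the lung in which most genes of its list were lowest. The myofibroblast list (7 measured) had a median of -0.07, which turned to 0.07 without Tsc1-null EV replicate 1, and in it Fgf18 stood at 20.5, 26.2 and 28.4 and at 19.0, 15.0 and 18.9, lower in all 3 Tsc1-null EV lungs (log2 fold -0.48 ± 0.19; limma adjusted p = 0.721).

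In the list of 10 genes shared by all fibroblasts, 6 were above 0 and 4 below. The median log2 fold was 0.15, and 0.54 without Tsc1-null EV replicate 1. Dcn, the collagen-binding proteoglycan decorin, had the smallest p of the list and was lower in all 3 Tsc1-null EV lungs. It stood at 241, 276 and 271 in WT EV and 217, 236 and 182 in Tsc1-null EV lungs (log2 fold -0.32 ± 0.16; limma adjusted p = 0.721). Col1a2 and Col3a1, chains of the fibrillar collagens I and III, stood highest in Tsc1-null EV replicates 2 and 3. Col1a2 was at 462, 252 and 501 in WT EV and 356, 995 and 854 in Tsc1-null EV lungs, and Col3a1 at 601, 266 and 593 and at 417, 1300 and 1021. Both passed limma when the 2 libraries standing apart were left out, at log2 folds of 0.94 and 0.95, a setting chosen after the data were seen.

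**Figure D5:**
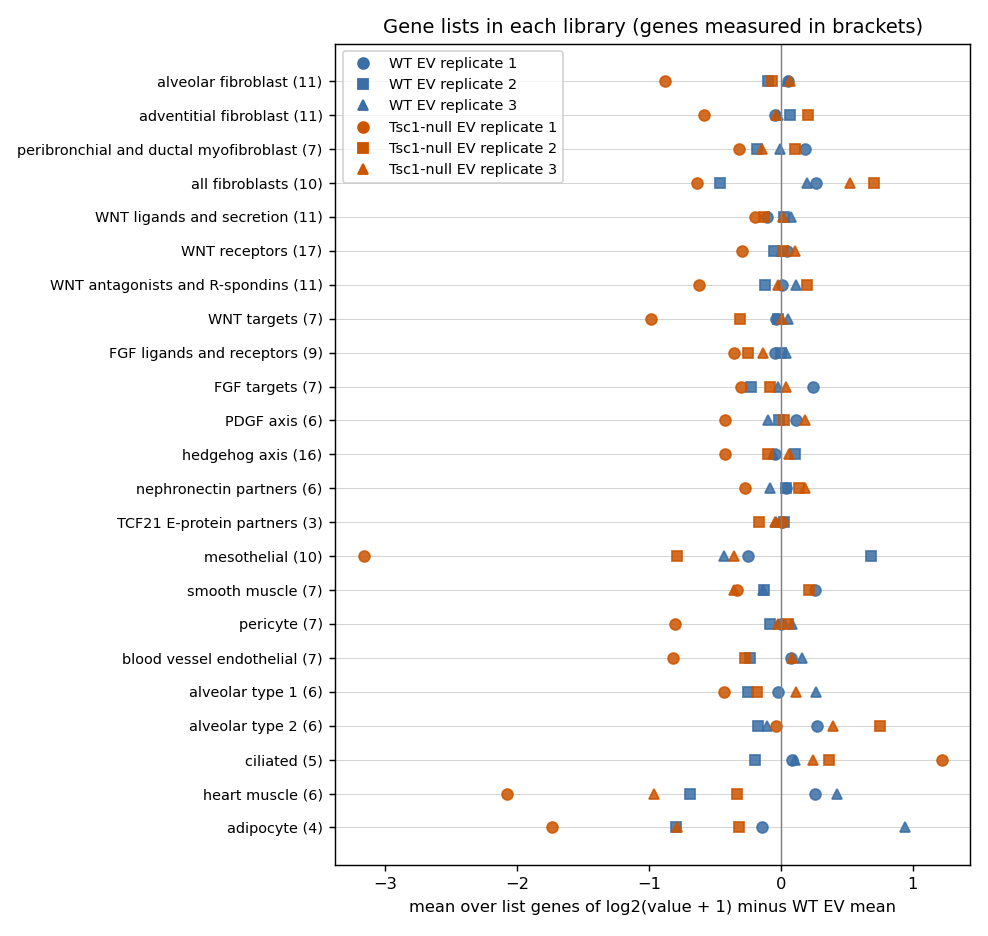
Mean over the measured genes of each list of log2(value + 1) minus the WT EV mean, 1 point per library. Tsc1-null EV replicate 1 is the leftmost point for most lists, of fibroblasts, pathways and other cell types alike, and lies farthest left for mesothelial markers (-3.16). It is not leftmost for smooth muscle, alveolar type 2 and ciliated markers or the TCF21 partners, and is the rightmost for ciliated markers.

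In the WNT pathway most targets had folds below 0, while the ligands did not share a direction. Of 7 measured target genes 6 were below 0, with a median log2 fold of -0.48, and -0.21 without Tsc1-null EV replicate 1, in which 6 of the 7 were lowest. Axin2, a feedback inhibitor induced by beta-catenin, stood at 27.9, 34.5 and 32.3 in WT EV and at 13.2, 26.6 and 25.7 in Tsc1-null EV lungs. Lef1, a partner of beta-catenin on DNA, stood at 7.93, 6.03 and 6.91 and at 4.81, 5.18 and 4.97. All 3 Tsc1-null EV lungs lay below the WT EV range in both genes, with log2 folds of -0.57 ± 0.26 and -0.40 ± 0.20 (limma adjusted p = 0.721 for both). When Tsc1-null EV replicate 1 was left out the fold of Axin2 was -0.26 and that of Lef1 -0.38, and when both libraries standing apart were left out they were -0.19 and -0.47. Nkd1, the highest-expressed target, stood at 218, 176 and 208 and at 87.8, 164 and 205, with overlapping groups (log2 fold -0.48, and -0.12 without Tsc1-null EV replicate 1).

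Of 11 measured genes for WNT ligands and their secretion 5 were above 0 and 6 below, with a median of -0.16 (-0.08 without Tsc1-null EV replicate 1), and 8 others, Wnt1 and Wnt3 among them, were too low to be tested. Porcn, the acyltransferase that readies WNT proteins for release, lay above every WT EV lung in the whole Tsc1-null EV group, at 37.3, 22.5 and 35.3 in WT EV against 52.5, 40.9 and 42.6 in Tsc1-null EV lungs (log2 fold 0.53 ± 0.22; limma adjusted p = 0.721), and the fold was 0.20 without both libraries standing apart. Of 17 receptors 6 were above and 11 below 0 (median -0.07, and 0.04 without Tsc1-null EV replicate 1). Fzd7 stood at 64.9, 46.3 and 53.9 in WT EV and at 36.7, 44.5 and 46.3 in Tsc1-null EV lungs, lower in all 3. Ryk, the highest-expressed receptor, was lower in all 3 too, at 220, 187 and 177 against 172, 170 and 164, and Fzd5 was higher in all 3, at 31.2, 24.3 and 27.5 against 34.7, 34.7 and 33.8. Of 11 antagonists and R-spondins 4 were above 0 and 7 below, with a median of -0.01 (0.03 without Tsc1-null EV replicate 1).

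In the FGF pathway, most ligands and receptors other than Fgf10 had folds below 0. Of 9 measured ligands and receptors 8 were below 0, with a median of -0.11, and Fgf1, the highest-expressed, was at -0.06. The 1 above 0 was Fgfr2, at 0.19. Fgf7, which signals through the same epithelial form of FGFR2 as Fgf10, stood at 48.9, 33.8 and 34.2 in WT EV and at 17.4, 29.1 and 24.7 in Tsc1-null EV lungs. It was below every WT EV lung in all 3, with a log2 fold of -0.70 ± 0.23 (limma unadjusted p = 0.015, adjusted p = 0.721), and -0.50 without Tsc1-null EV replicate 1. Fgf7 was lowest in the lung in which Fgf10 was highest. Of the 7 measured feedback genes of the pathway 6 were below 0, with a median of -0.09, against -0.02 over all genes tested. Dusp6, the highest-expressed, stood at 157, 97.9 and 132 and at 108, 105 and 132.

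The other 6 genes of the PDGF axis had a median of -0.16 with 5 below 0 (-0.04 without Tsc1-null EV replicate 1), and Pdgfb, the endothelial ligand and highest-expressed of them, stood at 163, 118 and 156 and at 82.2, 103 and 151 (log2 fold -0.41, and -0.21 without Tsc1-null EV replicate 1). Of 16 measured hedgehog genes 12 were below 0, with a median of -0.13 (-0.07 without Tsc1-null EV replicate 1), and 11 were lowest in Tsc1-null EV replicate 1. Gli3, mainly a repressor at hedgehog targets, was the one higher in all 3, at 6.83, 6.03 and 5.31 against 8.62, 8.84 and 9.06 (log2 fold 0.49 ± 0.19; limma adjusted p = 0.721). The 6 genes listed with nephronectin (integrin chains and matrix proteins) had a median of 0.07, or 0.27 without Tsc1-null EV replicate 1. The 3 E-proteins that pair with TCF21 had one of -0.07, or -0.11 without it, with Tcf4 at 454, 384 and 349 and at 439, 363 and 365.

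Over the 6 libraries, the genes whose centred log2 values lay closest to those of Tcf21 were Tfpi, an inhibitor of coagulation (root mean square difference 0.096), Dact1 (0.11) and Dkk3 (0.15), among 11169 genes of mean at least 5 compared. Tfpi stood at 40.6, 36.3 and 47.0 in WT EV and 15.2, 35.5 and 33.7 in Tsc1-null EV lungs. Closest to Pi16 were Scara5, a ferritin receptor (0.12), Dbi (0.12) and Acaa1a (0.14), with Scara5 at 10.7, 9.11 and 15.2 and at 14.0, 20.7 and 11.7. With 6 libraries and this many genes, close profiles are easily found, and the distances are a description only.

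All 9 are annotated as protein-coding genes in GENCODE M21 (GRCm38, the build mm10), and values are totals over each gene. Tcf21 lies on chromosome 10 from 22817281 to 22820174 (minus strand), Inmt on chromosome 6 from 55170626 to 55175043 (minus), Npnt on chromosome 3 from 132881745 to 132950291 (minus) and Pdgfra on chromosome 5 from 75152292 to 75198215 (plus). Pi16 lies on chromosome 17 from 29317680 to 29330593 (plus), Wnt2 on chromosome 6 from 17988940 to 18030585 (minus) and Wnt5a on chromosome 14 from 28504750 to 28527448 (plus). Fgf10 lies on chromosome 13 from 118669791 to 118792115 (plus) and Scube2 on chromosome 7 from 109798676 to 109865679 (minus). Exons of Pdgfra, Pi16, Wnt5a and Fgf10 overlap annotated genes on the opposite strand, and Pdgfra exons also overlap the microRNA gene Mir7025 on the same strand. In Pdgfra, Pi16, Wnt5a and Fgf10, 4.93%, 3.88%, 3.38% and 1.02% of the 50-base words occur in transcripts of other genes. Inmt, Npnt, Tcf21, Scube2 and Wnt2 shared 0% of such words.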

How the data were processed

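RNA from the lungs of 6 mice was sequenced as paired-end reads, per the labels' protocols. The deposited table gives a TMM-normalized signal per gene and library, as its name states, on a linear scale close to CPM. Per the submitters' processing notes, Bowtie2 2.1.0, RSEM 1.2.15, edgeR and mm10 were used, with no role stated. Annotation, filters and strand use: not given in the sources used here. Reads of antisense genes or of the rat cells therefore cannot be told apart from those of the members. Every value (100%) was within 0.01 of a whole multiple of 1 step per column, which was read as 1 read; the authors' counting is not stated.

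Groups follow the treatment label. Genes with a mean of at least 1 were tested on log2(value + 1) with limma 3.58.1 in R 4.3.3 (trend, two-sided, Benjamini-Hochberg adjustment over 14159 genes, threshold 0.05). Folds on this scale understate changes of low genes. Alternatives were edgeR 4.0.16 and DESeq2 1.42.0 on the recovered reads, other pseudocounts, filters and scalings, no trend, sample weights and each library left out. Leaving out both libraries that stood apart was chosen after the data were seen. The main limma test was run first on simulated reads with known changes, and the alternatives and the other steps were not. The members and the 23 lists were chosen with earlier results of these data known. List genes named are up to 3 per list by smallest unadjusted p and the highest-expressed by its mean over all libraries. Itga8, Limch1, Bnc1, Wnt1, Wnt3 and Fgfr2 were named after their values were seen.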

Additional observations from a re-analysis of the deposited data

How the results depend on the processing

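The count of members called was 0 under all 17 alternatives run, limma, edgeR and DESeq2 included. Tcf21, Inmt and Pdgfra stayed below 0 and Pi16 and Fgf10 above 0 in each of them. Tcf21 ranged from -1.0 to -0.32 and Pi16 from 0.17 to 0.61, with adjusted p from 0.144 and 0.054 upward, the lowest with sample weights. Scube2 turned to 0.24 with sample weights, 0.030 with edgeR, 0.023 with DESeq2, 0.38 without Tsc1-null EV replicate 1 and 0.47 without both libraries standing apart, where Wnt2 turned to 0.031. Npnt turned to -0.088 with sample weights. With 1 library left out, Scube2 ran from -0.47 to 0.38, Wnt5a from -0.24 to 0.14 (above 0 without WT EV replicate 1) and Npnt from -0.077 to 0.10 (-0.025 when WT EV replicate 2 was dropped, and lowest when Tsc1-null EV replicate 3 was). Over all genes limma called 0, against 1050 with sample weights (0.21 to 4.19), 11 with DESeq2, 25 without both libraries standing apart and 0 to 2 with 1 library left out. List genes called were 25 with sample weights, Col13a1, Fgf18 and Gli3 among them, and 3 (Col1a2, Col3a1 and Nppa) without both libraries. The cause of these changes was not tested. No alternative moved the median of all genes by over 0.1. No paired analysis was possible because the labels carry no replicate numbers shared between the groups. With 33 to 372 reads per library, Wnt2, Wnt5a, Fgf10 and Pi16 carry more relative counting error than Inmt, Npnt, Tcf21 and Pdgfra. Scube2 rested on few reads too, with 78 in Tsc1-null EV replicate 1 and 262 to 477 in the other libraries. The standard errors of the log2 folds did not follow the read numbers. Inmt was at 0.38 and Tcf21 at 0.32, while Wnt5a was at 0.22 and Npnt at 0.17.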
